A study of Sus scrofa with 12 samples.

Results

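RYR1 encodes the ryanodine receptor of skeletal muscle, a channel through which the sarcoplasmic reticulum releases its calcium. N6-methyladenosine (m6A), a methyl mark on adenosines inside mRNA, was listed on its transcript in longissimus dorsi, the long back muscle. Peaks were taken where the deposited lists give RYR1 as the gene. This gave 40 of the 13487 peaks in 6 lists, and RYR1 was 1 of 2159 genes with a peak.

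The muscle came from 5-day-old pigs of the Large White and Ningxiang breeds, with no treatment or genetic change in either. Per the labels, mRNA was fragmented and pulled down with an m6A antibody, and part of it was kept as input. There were 3 numbered replicates per breed, each with an immunoprecipitated and an input sample (12 samples in all) and 1 peak list. The labels do not say whether the replicates came from different pigs. The p-values of tests between breeds below therefore reflect only how much these samples varied, and part or all of that may be technical. The authors' p-value of a peak belongs to that peak within its list and does not measure this variation.

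In a muscle fibre, an action potential moves a voltage sensor in the transverse tubule that touches the ryanodine receptor. The receptor then opens and lets calcium out of the sarcoplasmic reticulum, which starts contraction. Faulty RYR1 is the known basis of malignant hyperthermia, described in pigs as porcine stress syndrome. In mRNAs in general, m6A is known to lie often near stop codons and in long exons, and proteins that read it affect splicing, translation and decay.

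Large White lists held 2373, 2214 and 2533 peaks in replicates 1, 2 and 3, and Ningxiang lists 2034, 2111 and 2222. The lists give no read depth. Where a list has no peak at a site, the signal there did not reach the threshold of the peak calls, and neither the RYR1 mRNA level nor the share of methylated molecules can be read from the lists. Of the 11 skeletal muscle fibre markers with a curated transcript, which a peak needs here, 9 had a peak in some list and 6 in all 6 lists, MYH1, MYH2, MYH4, CKM, DES and TNNT3. ACTA1 and TNNC2 had none. Over all genes with a peak in any list, 35.7% had one in all 6 lists. Of the 5 heart muscle markers, 2 have a curated transcript, NPPA and TNNI3, and neither had a peak. Among markers with a curated transcript, 3 of 4 for fat cells, 3 of 3 for fibroblasts, 2 of 2 for endothelium, 1 of 2 for blood and 1 of 1 for nerve had a peak in some list. The share of all genes with a curated transcript that had a peak is not given here, so these counts have no background beside them. A peak also needs enough reads, so the counts describe the lists and not the makeup of the tissue.

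RYR1 lies on the plus strand of chromosome 6 from 47339759 to 47458457 (susScr11), and its annotated transcript has 109 exons. The 40 peaks fell into 10 sites, where peaks of different lists that share at least 1 exonic base count as 1 site. The sites touched 25 of the 109 exons and covered 2316 exonic bases in all. The first 28 exons, over 33.1 kb of the gene, carried no peak in any list. From exon 29 on, sites were spread through the middle of the transcript, and the most 3′ one ended at the annotated end of the gene.

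**Figure D1:**
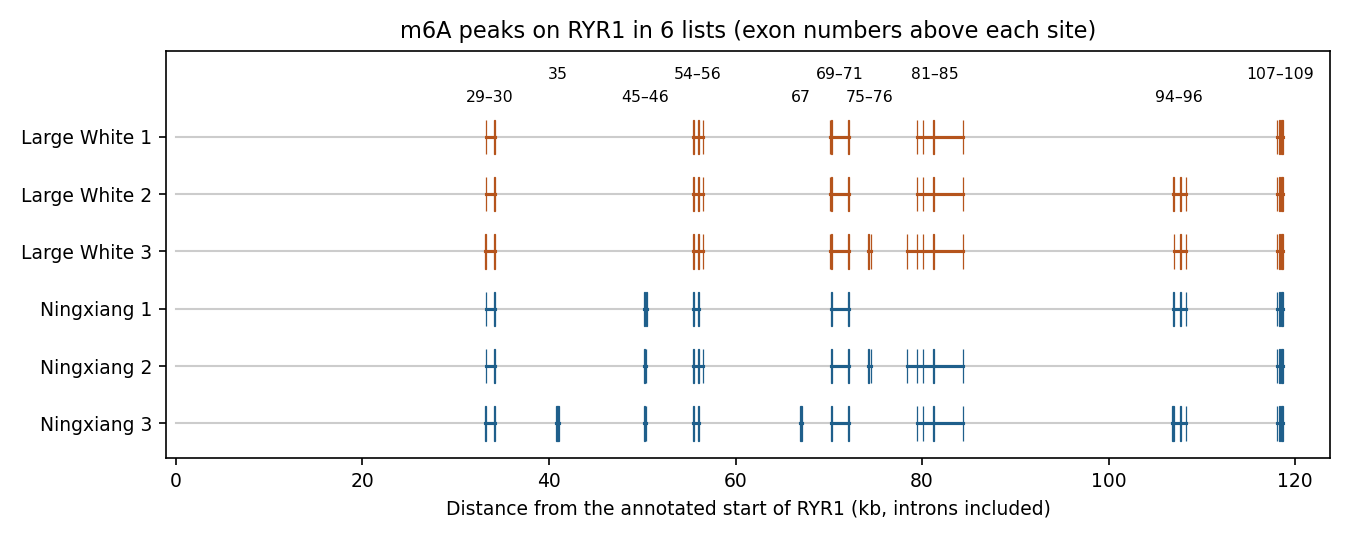
Exonic blocks of each RYR1 peak (vertical bars) and the introns between them (horizontal lines) in the 3 Large White and 3 Ningxiang lists, against distance in kb from the annotated gene start. All 6 lists have the sites at exons 29–30, 54–56, 69–71 and 107–109, and only the Ningxiang lists have one at exons 45–46.

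Of the 10 sites, 4 had a peak in all 6 lists, at exons 29 to 30, 54 to 56, 69 to 71 and 107 to 109. Over the sites of all genes, 20.5% had a peak in all 6 lists. One site, at exons 45 to 46, had a peak in 3 of 3 Ningxiang lists and in no Large White list, as did 0.853% of the sites of all genes. No RYR1 site had a peak in 3 of 3 Large White lists and no Ningxiang list (1.51% of all sites). The other sites comprised 3 found in both breeds but not in all 6 lists and 2 found in 1 list alone (33.1% of all sites were found in 1 list). Fisher's exact test (two-sided) gives p = 0.1 for such a 3-to-0 split, so no single site could pass 0.05.

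The 3′ end of the transcript carried the strongest mark by p-value. This site lay on chromosome 6 from 47457791 to 47458457, over exons 107, 108 and 109, and was listed in the 3′ untranslated region. Its log10 p was -664, -553 and -601 in Large White replicates 1, 2 and 3, and -454, -483 and -547 in Ningxiang replicates 1, 2 and 3. These are the authors' values for each list, and so are all folds below. In every list it was the RYR1 peak with the lowest p, and it ranked 24, 30 and 26 by p among all peaks of the Large White lists, and 21, 27 and 25 in the Ningxiang lists.

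The fold of this 3′ peak, immunoprecipitated over input, was 2.69, 2.46 and 2.65 in the Large White lists and 2.33, 2.5 and 2.59 in the Ningxiang lists. In 5 of the 6 lists it was the highest fold on RYR1. In Ningxiang replicate 3 it came behind the peaks at exons 67, 35, 94 to 96 and 45 to 46. The peak covered 301, 331 and 331 exonic bases in Large White and the same 301, 331 and 331 in Ningxiang. It ran to the last annotated base in replicates 2 and 3 of both breeds, and in replicate 1 of both it stopped 30 bases short.

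The first site from the 5′ end, at exons 29 and 30, lay on chromosome 6 from 47372908 to 47373977. Its peaks covered 121, 121 and 211 exonic bases in Large White replicates 1, 2 and 3, and 121, 151 and 181 in Ningxiang replicates 1, 2 and 3. The breeds overlapped, and replicate 1 of both breeds and Large White replicate 2 had the same peak, edge for edge. Its fold was 1.71, 1.72 and 2.0 in Large White and 1.65, 1.82 and 1.77 in Ningxiang, below the median fold of each list. The log10 p was -98.8, -106 and -158 in Large White and -72.5, -68.2 and -104 in Ningxiang.

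At exons 54 to 56, from 47395185 to 47396299, the peaks took in all 141 bases of exon 55 in 4 of the 6 lists. They covered 240, 240 and 270 exonic bases in Large White, and 180, 240 and 180 in Ningxiang. Ningxiang replicates 1 and 3 stopped inside exon 55 and did not reach exon 56. Ningxiang replicate 2 had the same edges as Large White replicates 1 and 2. Its fold was 1.83, 2.14 and 2.07 in Large White and 1.75, 1.94 and 1.89 in Ningxiang. The log10 p was -172, -257 and -231 in Large White and -111, -134 and -167 in Ningxiang, which made it the RYR1 peak next in strength to the 3′ one by p in all 3 Large White lists and in Ningxiang replicate 1. In Ningxiang replicate 2 the peak at exons 81 to 85 came before it, at -144, and in Ningxiang replicate 3 the peak in exon 67 did, at -182.

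At exons 69 to 71, from 47409855 to 47411907, the peak was longer in every Large White list than in any Ningxiang list. All 3 Large White peaks had identical edges and covered 211 exonic bases, made of 21 bases of exon 69, the 93 bases of exon 70 and 97 bases of exon 71. Ningxiang peaks covered 121, 181 and 121 exonic bases, began inside exon 70, and lay within the Large White peak. In Ningxiang replicate 2 the 5′ edge was 30 exonic bases further in, and in replicates 1 and 3 it was 60 further in and the 3′ edge 30 bases short. The fold was 1.88, 1.88 and 1.96 in Large White and 1.71, 1.73 and 1.80 in Ningxiang. The log10 p was -160, -159 and -171 in Large White and -90.3, -83.3 and -121 in Ningxiang. This site was singled out after its values were seen, and no test was made of it.

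Of the 80 edges of the 40 peaks, 42 were themselves at the outer edge of their site, and each of the other 38 lay a whole multiple of 30 exonic bases inside it. Peak edges on RYR1 were thus recorded in steps of 30 exonic bases, and a difference of 30 is 1 step. The 30 bases found in 3 of 3 Large White and 0 of 3 Ningxiang lists, 21 in exon 69 and 9 in exon 70, amount to 1 such step. When the RYR1 blocks were cut at every block edge, these were 2 of 43 segments (2.03% of the segments of all genes were of this kind). Another 2 segments, of 64 and 57 bases, had a peak in 3 of 3 Ningxiang and 0 of 3 Large White lists (0.701% of all segments). In all 6 lists there were 9 of the 43, with 723 bases together (6.74% of all segments). Without Ningxiang replicate 2, which loosens both rules, the segments found in Large White only numbered 6 and those found in Ningxiang only 3. The shares over all genes under the looser rules are not given here. With touching blocks merged instead, RYR1 had 25 regions, of which 9 were in all 6 lists (15.1% of the regions of all genes). Of the merged regions, 1 was found in 3 of 3 Large White and 0 of 3 Ningxiang lists (1.78%), and 2 the other way round (0.685%). Segments or regions that neighbour each other belong to the same peaks, so they are not separate sites.

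**Figure D2:**
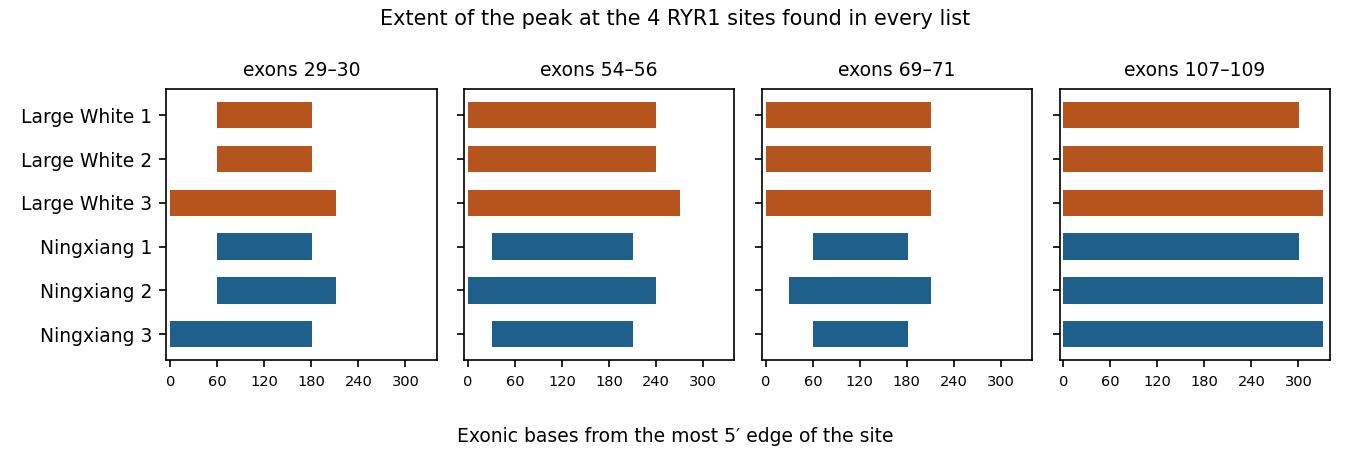
Extent of the peak in exonic bases, counted from the most 5′ edge of the site, at the 4 sites with a peak in every list, with Large White lists above Ningxiang lists. At exons 69–71 each Ningxiang bar (121, 181 and 121 bases) lies inside the Large White bars (211 bases each), while at exons 107–109 the bars of both breeds are 301 to 331 bases long.

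The site at exons 45 and 46 was listed in Ningxiang alone. It lay on chromosome 6 from 47389967 to 47390235, with 64, 64 and 94 bases of exon 45 in Ningxiang replicates 1, 2 and 3 and 87, 57 and 57 bases of exon 46, across an intron of 88 bases. No Large White list had a peak between the sites at exons 29 to 30 and 54 to 56, from 47373977 to 47395185. The Ningxiang folds were 2.03, 1.74 and 2.63, with log10 p of -61.8, -28.2 and -52.5. In replicate 2 it was the weakest RYR1 peak of any list by p, at rank 369 of 2111. Over all genes, 34 sites had a peak in 3 of 3 Ningxiang and 0 of 3 Large White lists, and the weakest of their 3 values had a median log10 p of -4.575. By that value the RYR1 site, at -28.2, ranked 4 of 34. All other RYR1 peaks had a lower log10 p still, so this rank does not set the site apart from the rest of the gene. The 34 sites fell in 33 genes, and RYR1 was 1 of 8 of these genes that also had a site in all 6 lists. The share of all genes with a site in all 6 lists is not given here, so this count has no background beside it.

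Ningxiang replicate 3 alone had peaks inside single exons. One lay in exon 35, from 47380562 to 47380801, with 240 bases, a fold of 2.84 and a log10 p of -154. The other lay in exon 67, from 47406680 to 47406889, with 210 bases, a fold of 3.82 and a log10 p of -182, and this was the highest fold of any RYR1 peak. Of the 221 sites of all genes found in Ningxiang replicate 3 only, these ranked 5 and 3 by p, where the median log10 p was -5.61. Every RYR1 peak of that list was in its top 10.7% by p, so these ranks alone do not set the 2 peaks apart from the gene. Sites found in 1 list only made up 10.9% of those in Ningxiang replicate 3, against 7.28% to 12.3% in the other lists. The remaining 38 of the 40 RYR1 peaks crossed at least 1 splice junction, while 54.0% to 59.3% of all peaks in a list did.

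At 3 sites, both breeds had a peak in some lists but not in all 6. The site at exons 81 to 85, from 47418155 to 47424192, had a peak in all 3 Large White lists and in Ningxiang replicates 2 and 3. These peaks covered 150, 150 and 210 exonic bases in Large White, and 210 and 150 in Ningxiang replicates 2 and 3, over genomic spans of 4970 to 6038 bases. Each held the whole of exon 83, of 18 bases, and of exon 84, of 81 bases. In human and mouse RYR1 a short exon is known to be skipped in immature muscle. The files do not say whether the 18-base exon is its pig counterpart, and they show no splicing.

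The fold at exons 81 to 85 was 1.85, 1.89 and 1.93 in Large White and 1.96 and 1.78 in Ningxiang replicates 2 and 3. The log10 p was -165, -184 and -177 in Large White and -144 and -136 in these Ningxiang lists. The site at exons 94 to 96, from 47446530 to 47448077, had a peak in Large White replicates 2 and 3 and in Ningxiang replicates 1 and 3. It varied most in length, with 151 and 121 exonic bases in these Large White lists and 211 and 271 in these Ningxiang lists, and all 4 peaks held the 71 bases of exon 95. Its folds were 1.78 and 1.75 in Large White, and 1.92 and 2.84 in Ningxiang. Its log10 p was -46.8 and -51.9 in Large White, and -60.9 and -55.7 in Ningxiang. The site at exons 75 and 76, from 47413932 to 47414310, was found in Large White replicate 3, with 151 bases and a fold of 1.70, and in Ningxiang replicate 2, with 121 bases and a fold of 1.63.

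**Figure D3:**
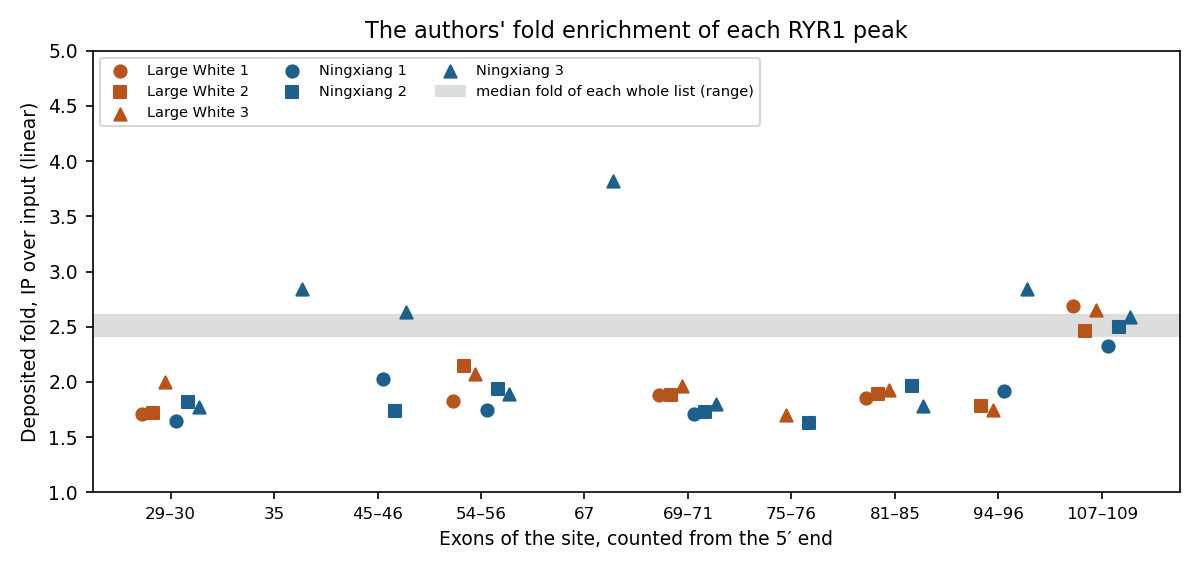
The authors' fold enrichment (immunoprecipitated over input, linear) of every RYR1 peak by site, with Large White lists in brown and Ningxiang lists in blue, and the range of the 6 list medians as a grey band. Most points lie below the band, the 3′ site at exons 107–109 lies around it, and the highest 3 points (2.84, 3.82 and 2.84) are from Ningxiang replicate 3.

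RYR1 peaks combined low folds with low p-values. All 40 were in the stronger 50% of their list by p, the worst of them at the top 17.5%, while 34 of 40 had a fold below the median of their list. The median fold of the RYR1 peaks was 1.85, 1.885 and 1.96 in Large White replicates 1, 2 and 3, where the medians of the whole lists were 2.56, 2.57 and 2.47. In Ningxiang replicates 1, 2 and 3 it was 1.835, 1.82 and 2.59, where the list medians were 2.42, 2.53 and 2.605. Of the 6 RYR1 peaks at or above their list median, 4 were in Ningxiang replicate 3 and the others were the 3′ peaks of Large White replicates 1 and 3.

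The number of RYR1 peaks did not separate the breeds. There were 5, 6 and 7 peaks in Large White replicates 1, 2 and 3, and 6, 7 and 9 in Ningxiang replicates 1, 2 and 3, so the groups overlapped. The means were 6 ± 1 in Large White and 7.33 ± 1.53 in Ningxiang (SD, n = 3 each), a difference of -1.33 for Large White minus Ningxiang (exact two-sided permutation p = 0.5, adjusted p = 0.6). With 3 lists against 3, the smallest p this test can give is 0.1.

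Exonic bases under RYR1 peaks numbered 1023, 1204 and 1505 in the Large White lists and 1085, 1355 and 1835 in the Ningxiang lists, again overlapping. The means were 1244 ± 243 and 1425 ± 380 (SD, n = 3 each), a difference of -181 (exact two-sided permutation p = 0.6, adjusted p = 0.6). Without Ningxiang replicate 3 the difference turned round to 24. The 4 sites found in every list held 873, 903 and 1023 of these bases in Large White, and 723, 903 and 813 in Ningxiang. All other sites held 150, 301 and 482 in Large White, and 362, 452 and 1022 in Ningxiang. The bases outside the 4 sites were thus most numerous in Ningxiang replicate 3, which also had both single-exon peaks.

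**Figure D4:**
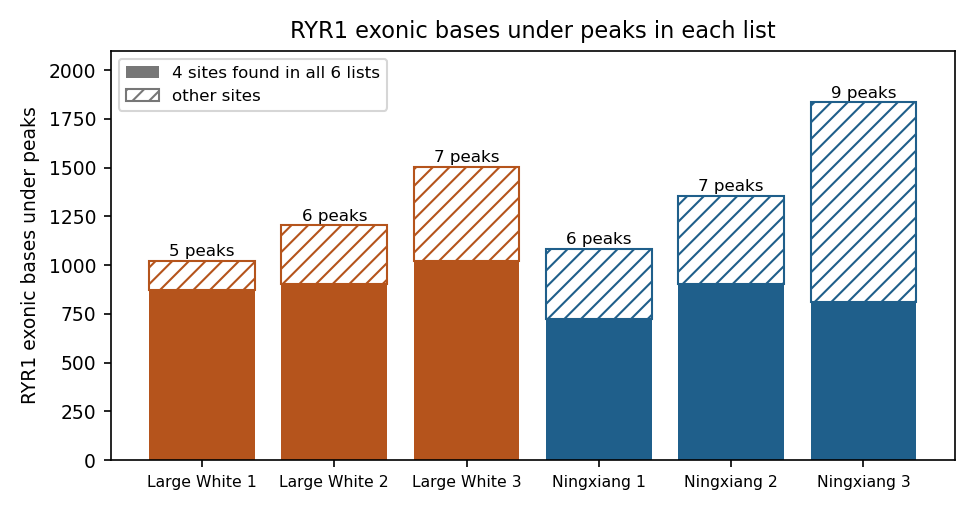
RYR1 exonic bases under peaks in each list, with the 4 sites found in all 6 lists as the solid part of a bar and all other sites as the hatched part, and the number of peaks above. Large White totals run from 1023 to 1505 and Ningxiang totals from 1085 to 1835.

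Large White lists shared more of their RYR1 bases with each other than Ningxiang lists did. The Jaccard index, shared over combined exonic bases, was 0.680 to 0.850 for the 3 Large White pairs, 0.473 to 0.541 for the 3 Ningxiang pairs and 0.440 to 0.759 for the 9 pairs across breeds. The highest value across breeds, 0.759, joined Large White replicate 3 and Ningxiang replicate 2, and it was above every Ningxiang pair. Over all other genes the index was lower, at 0.440 to 0.456 within Large White, 0.391 to 0.420 within Ningxiang and 0.364 to 0.419 across breeds. Each list enters several pairs, so these values are a description without a test.

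RYR1 had the most exons of any gene with an exon number in the lists. The gene with the next most was DMD, which encodes dystrophin of the fibre membrane, with 79. RYR1 averaged 6.67 peaks per list, and 9 of 2159 genes averaged more. Of 15 genes with 50 or more exons, RYR1 came after DMD (9.33 peaks per list) and AKAP9, a scaffold that anchors protein kinase A (9.17). COL5A1, a collagen chain with 69 exons, averaged 2. RYR1 had 200 exonic bases per peak, against 301 in DMD, 395 in AKAP9 and 371 in COL5A1. Over the 15 genes this value ran from 150 in LRRK2 to 395 in AKAP9. It was below that of RYR1 in COL5A3, HTT, ATM, COL1A2, LRRK2, VWF and MYO7A, and above it in the rest. In each Large White list, 20, 13 and 13 genes had more peaks than RYR1, and in each Ningxiang list 11, 8 and 5.

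**Figure D5:**
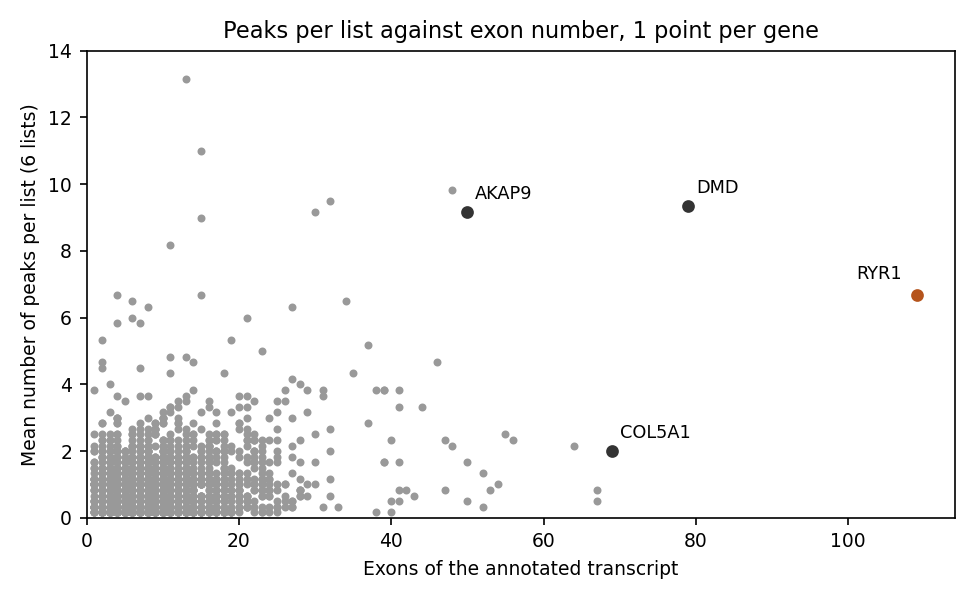
Mean number of peaks per list over the 6 lists against the number of exons of the annotated transcript, with 1 point for each gene that has an exon number. RYR1, at 109 exons and 6.67 peaks, stands to the right of every other gene but below DMD and AKAP9 in peaks.

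Among genes with a peak in all 6 lists, those whose peak numbers were most like those of RYR1 included SRRM2, XIRP1, ADNP and PEG10. Likeness was the mean absolute difference in peaks per list over the 6 lists, and it was 1 for SRRM2 and XIRP1, 1.17 for ADNP and 1.33 for PEG10. SRRM2 is a scaffold of the splicing machinery, XIRP1 an actin-binding protein of striated muscle and ADNP a homeobox protein. PEG10 is an imprinted gene derived from a retrotransposon. These genes have 15, 4, 4 and 2 exons in that order, far fewer than RYR1. Their peaks covered 1595 to 2195 exonic bases per list in SRRM2, 2495 to 3994 in XIRP1, 1832 to 2341 in ADNP and 962 to 2398 in PEG10, where RYR1 had 1023 to 1835. The ranges of PEG10 and SRRM2 overlapped with that of RYR1, and so did that of ADNP, by a few bases.

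Of genes with 10 or more sites there were 8, RYR1 included. RYR1 had 4 of its 10 sites in all 6 lists, and the other 7 genes had 29 of 89 (32.6%). CMYA5, a muscle protein with 8 of 14, had a higher share than RYR1.

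Among 45 genes of excitation-contraction coupling and calcium handling, 18 have a curated transcript that could carry a peak, and 15 had a peak in some list. The same share over all genes with a curated transcript is not given here. A peak in all 6 lists was found on 9 of the 15, while 35.7% of all genes with a peak had one in all 6. CACNA1S, the voltage sensor that touches RYR1, has no curated transcript, and neither do RYR2, RYR3, the junctophilins JPH1 and JPH2, or TRDN, the anchor of the calcium store at the channel. CACNG1, TMEM38B and MRLN have one and carried no peak.

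Of the voltage sensor, the subunit gene CACNA2D1 had 2 peaks in each Large White list and 1, 1 and 2 in the Ningxiang lists, with folds of 1.77 to 2.66. FKBP1A, the immunophilin that steadies the closed channel, and CALM3, which encodes the calcium sensor calmodulin, had 1 peak in every list, with folds of 1.63 to 2.17 and 2.13 to 2.32. CASQ1, which stores calcium next to the channel, had a peak in Large White replicates 1 and 3 and in Ningxiang replicate 2, with folds of 1.56 to 1.64. HOMER1, a scaffold known to bind ryanodine receptors, had 3 peaks in each Large White list and 3, 2 and 2 in the Ningxiang lists. Its exonic bases per list ran from 661 to 1051, and both its lowest and its highest value were the largest of the 15. The ranges of CALM3 (331 to 780) and STIM1 (240 to 747) overlapped with it.

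STIM1, the sensor of an empty calcium store, had 2 peaks in each Large White list and 2, 1 and 1 in the Ningxiang lists, and ORAI1, the channel it opens, had 1 in every list. The kinase subunit gene CAMK2G had 1 peak in every list, while CAMK2D had 1 in each Large White list and 1, 3 and 0 in the Ningxiang lists. ATP2A1, the pump that returns calcium to the store in fast fibres, and its inhibitor SLN had 1 peak in every list, with folds of 2.63 to 3.32 and 1.98 to 2.53. ATP2A2, the pump of slow fibres, had a peak in Large White replicates 1 and 3 and in Ningxiang replicates 1 and 3. BIN1, which shapes transverse tubules, had 1 peak in Ningxiang replicate 3 alone, and PVALB, a calcium buffer, 1 in Large White replicate 3 alone. None of the 15 had more than 3 peaks in a list, where RYR1 had 5 to 9.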

How the data were processed

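Per the labels' protocols, mRNA was isolated, fragmented and enriched with an m6A antibody, and libraries were made from enriched and input RNA. Coordinates are on susScr11, and HOMER, ChIPseeker 1.30.2 and FastQC 0.11.9 were among the tools, per the submitters' processing notes. Which aligner and peak caller were used is not given in the sources used here. One annotated peak list per replicate was deposited by the authors, so replicates were not pooled for calling. A list was taken as that of the immunoprecipitated sample whose description names it (the matching input names it too). Per the file headers, each deposited peak has a linear fold (a ratio), a p-value and the log10 of the p-value and of its adjusted form, kept here as a score because both run beyond a usual log10 range. Fold and p-value belong to a peak within its list and were not tested between breeds.

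RYR1 and the gene lists were chosen with earlier results of these data known. The 5 similar genes were taken by the smallest mean absolute difference in peaks per list, and every gene of the calcium handling list with a peak was to be named. A few of these genes are not reported here. Starts count from 0 in the files, so 1 was added. Block lengths were summed for exonic bases; the deposited width is 1 base longer than the genomic span. Exons of a peak were numbered on from the exon the annotation gives, and those of the 3′ peak back from the last. RefSeq names on Sscrofa11.1 showed which genes have a curated transcript. Sites, segments and exact permutation tests (Benjamini-Hochberg over 2 tests) were computed with Python 3.11.15, pandas 2.3.3, NumPy 2.4.6 and SciPy 1.17.1, and checked on planted blocks. The alternatives were the stronger 50% of peaks, equal list length, another gene assignment, stricter overlap, each replicate left out, and pairing by replicate number. Grouping into sites was added after the data were seen.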

Additional observations from a re-analysis of the deposited data

How the results depend on the processing

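All 40 RYR1 peaks remained when lists were reduced to their stronger 50% by p, or all shortened to equal length, so no RYR1 value changed there, nor when the gene was taken from the annotation text or the gene span. Leaving out each replicate gave a difference in peaks of -2 to -0.500 and in exonic bases of -351 to 24. The 24, without Ningxiang replicate 3, was the only one of the 20 alternative values of these differences to turn its sign. Sites in all 6 lists stayed at 4 or, without Ningxiang replicate 1, were 5, and the site at exons 45 to 46 stayed Ningxiang only. Segments found in Large White only were 2, became 1 as merged regions, and ranged from 2 to 6 when a replicate was left out, with 6 without Ningxiang replicate 2. Those found in Ningxiang only were 2, also as merged regions, and 3 without Ningxiang replicate 2. Exonic regions in all 6 lists were 9, with 8 where at least 50% of a region had to be covered and 13 without Ningxiang replicate 1.

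With the replicate number as a block, an exact sign-flip test over 3 pairs gave differences of -1.33 peaks and -181 bases with p = 0.25, the smallest it allows. The labels do not say that a number pairs the breeds, so the numbers were not taken as pairs. Over 2159 genes, the deviations of lists with the same number in peaks per gene correlated at 0.0476, 0.0346 and -0.0160. Lists of the 2 breeds with unlike numbers correlated at -0.0867 to 0.0497. These values cannot decide whether a number pairs the breeds, since a pairing need not show in peak numbers. Depth is unknown, so a missing peak does not show missing m6A.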
